A study of Rattus norvegicus with 6 samples.

Results

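The S100 proteins and annexins described here are 10 genes, S100a10, S100a11, S100a6, S100a4, S100a1, S100a13, S100b, Anxa1, Anxa2 and Anxa5, out of 32883 genes in the count table. They were found by gene name. They were selected with their values in the comparison of ZJU-37 with DMSO known, S100a10 because it was much higher with ZJU-37, so the differences of these 10 genes in that comparison are descriptions without a test. All 10 were found, and all 10 passed the filter on low counts, which left 14670 genes. The RNA came from primary oligodendrocyte precursor cells (OPCs) of the cerebral cortex of newborn Sprague Dawley rats, shaken off a mixed glial culture and cultured in a serum-free medium. ZJU-37 is an inhibitor of the kinase RIPK1, and the question was what it does to transcription in OPCs. Of the 6 libraries, 3 came from cells given 5 µM ZJU-37 and 3 from cells given the same volume of its solvent DMSO, and the labels give 36 h for both groups. The labels name no genotype and no further agent, and they do not say whether the 3 libraries of a group came from separate cultures, so p-values measure only the spread between these libraries, which may be technical.

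S100 proteins are small calcium sensors of the EF-hand family that work mostly as dimers, inside cells and, for some of them, as secreted ligands. S100a10 stands apart in that it no longer binds calcium. It pairs with annexin A2, a protein that binds membrane phospholipids when calcium rises, and the complex brings plasminogen, ion channels and receptors to the cell surface. S100a11 pairs in a similar way with annexin A1, and S100b is a long-used marker of glia that is also made by OPCs.

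Total counts ran from 13935865 to 24097927 per library. The OPC label was checked with marker genes. 9 of 10 OPC marker names were found and none was listed at 0, with a summed level of 4426 to 5168 CPM (counts scaled to library size, here adjusted by the TMM method) in DMSO and 4613 to 6361 CPM in ZJU-37. The sum hides a split, since by edgeR with an adjusted p-value under 0.05 Pdgfra, Cspg4, Olig1 and Ptprz1 rose with ZJU-37 and Sox10, Gpr17, Nkx2-2 and Vcan fell. Markers of other cells were also present. The 13 mature oligodendrocyte markers summed to 13700 to 26060 CPM in DMSO and 5402 to 10850 CPM in ZJU-37, the 14 microglia markers to 2732 to 4684 and 2009 to 4116 CPM, and the 12 astrocyte markers to 1070 to 1709 and 935 to 1396 CPM. Fibroblast and mural cell markers summed to 106.1 to 185.7 and 55.2 to 132.8 CPM, endothelial markers, with Cldn5 at 0 in every library, to 20.56 to 23.52 and 13.25 to 16.99 CPM, neuron markers to 725.1 to 942.7 and 638.1 to 855.2 CPM, and Schwann cell markers to 47.85 to 53.47 and 50.61 to 58.15 CPM. In such bulk RNA, fewer cells of a type and less RNA per cell cannot be told apart.

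S100a10 was the member that differed most between the groups. Its level was 58.7, 59.1 and 56.8 CPM in DMSO replicates 1 to 3 and 155.0, 159.7 and 160.6 CPM in ZJU-37 replicates 1 to 3. The groups did not overlap, and every ZJU-37 library was above every DMSO library by a wide margin. The log2 fold change was 1.45 (SE 0.053, 95% interval 1.32 to 1.57), which is 2.72-fold (2.50 to 2.97). The differences between libraries of the same replicate number were 1.40, 1.43 and 1.499 on the log2 scale. Raw counts were 804, 1046 and 1070 in DMSO and 2867, 3293 and 3885 in ZJU-37. The summed mature oligodendrocyte markers and the summed endothelial markers, whose groups did not overlap either, were lower with ZJU-37. The astrocyte, microglia, fibroblast and mural cell, and neuron sums were also lower with ZJU-37 at all 3 replicate numbers, although their groups overlapped. The part of these cells in the S100a10 difference was not tested.

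**Figure D1:**
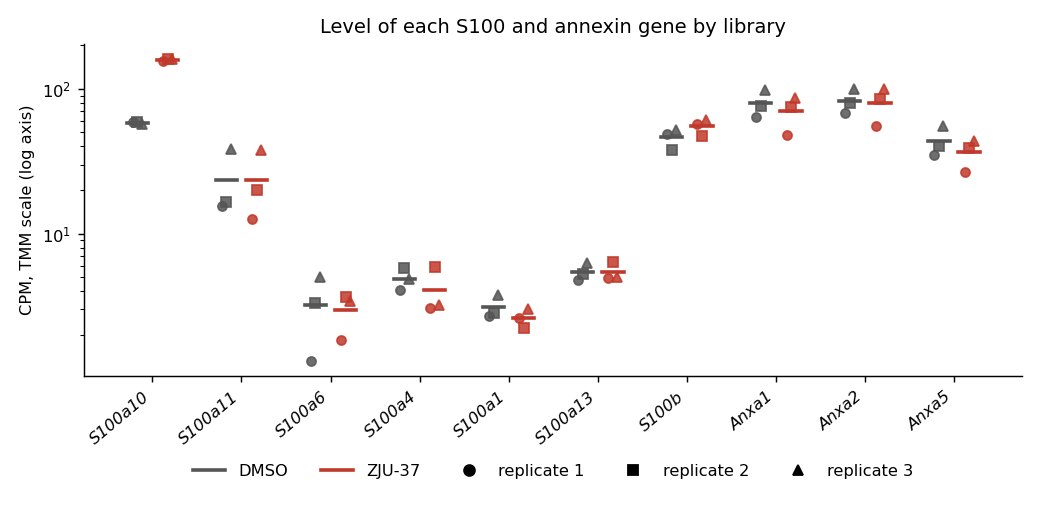
Level of the 10 genes in each of the 6 libraries. The y axis is CPM on a log scale, each point is a library (grey DMSO, red ZJU-37, the symbol giving the replicate number) and the bar is the group mean. S100a10 is the gene whose 3 red points all lie above its 3 grey points, while for the other 9 genes the colours overlap.

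S100a10 was also the least variable member. Its coefficient of variation was 2.11% over the DMSO libraries and 1.89% over the ZJU-37 libraries, and counting error alone would give 3.21% and 1.73%. The pooled standard deviation within groups was 0.029 on the log2 scale, against a median of 0.16 over all tested genes, and 1.2% of tested genes had a smaller one. S100a6 and S100a11 lay at the other end, with pooled standard deviations of 0.77 and 0.76. S100a11, the neighbour of S100a10 on chromosome 2, had coefficients of variation of 54.3% and 55.2% where counting error would give 4.94% and 4.39%, and the far lower counts of S100a6 gave 57.8% and 33.2% where counting error would give 13.2% and 12.5%.

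The S100a11 level was 15.6, 16.7 and 38.2 CPM in DMSO and 12.5, 19.98 and 37.7 CPM in ZJU-37. Replicate 3 was high in both groups and the groups overlapped. The log2 fold change was -0.0066 (SE 0.50), with a 95% interval of -1.21 to 1.19 that includes a change of 2-fold in either direction. A fit that blocked on replicate number gave -0.0135 (SE 0.11), with a narrower 95% interval of -0.262 to 0.235 that does not include such a change.

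S100a6, the protein also called calcyclin, was at 1.31, 3.33 and 5.04 CPM in DMSO and 1.84, 3.64 and 3.43 CPM in ZJU-37, a log2 fold change of -0.13 (SE 0.49). S100a4, a partner of non-muscle myosin, was at 4.09, 5.76 and 4.83 CPM in DMSO and 3.08, 5.87 and 3.22 CPM in ZJU-37, a log2 fold change of -0.27 (SE 0.30). S100a1, best known from heart and skeletal muscle, was at 2.70, 2.83 and 3.77 CPM in DMSO and 2.60, 2.23 and 3.02 CPM in ZJU-37, a log2 fold change of -0.25 (SE 0.23). In all 3 genes the groups overlapped, and with at most 121 counts in any library these values carried a counting error above that of S100a10. S100a13, which takes part in the release of FGF1, was at 4.82, 5.25 and 6.32 CPM in DMSO and 4.92, 6.40 and 5.00 CPM in ZJU-37, a log2 fold change of -0.0089 (SE 0.19).

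S100b was at 48.5, 37.96 and 52.0 CPM in DMSO and 57.4, 47.5 and 60.6 CPM in ZJU-37. In each of the 3 replicate numbers the ZJU-37 library was above the DMSO library, although the groups as wholes overlapped. The log2 fold change was 0.26 (SE 0.14, 95% interval -0.083 to 0.60), and a fit that blocked on replicate number gave 0.26 with a smaller SE of 0.059.

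Among the annexins, Anxa1, which restrains inflammation downstream of glucocorticoids, was at 63.5, 76.2 and 98.5 CPM in DMSO and 48.1, 74.6 and 86.9 CPM in ZJU-37, a log2 fold change of -0.18 (SE 0.25). Anxa2, the partner of S100a10, was at 67.9, 80.3 and 100.5 CPM in DMSO and 55.4, 85.5 and 99.1 CPM in ZJU-37, a log2 fold change of -0.052 (SE 0.24). Anxa5, which binds phosphatidylserine exposed on dying cells, was at 35.1, 40.1 and 55.3 CPM in DMSO and 26.5, 39.1 and 43.5 CPM in ZJU-37, a log2 fold change of -0.26 (SE 0.23). The groups overlapped for each of these annexins, and the lowest library of each was ZJU-37 replicate 1.

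With an adjusted p-value under 0.05 in edgeR as the limit, 1 of the 10 members was called, S100a10, in the higher direction. Over all tested genes 15.0% were called, 9.43% higher and 5.58% lower, and since the members were chosen on this comparison nothing is read from their count. With the replicate number as a block, 3 members were called, S100a10 and S100b higher and Anxa5 lower, where 32.1% of all tested genes were called. The groups did not overlap for 1 of 10 members and for 35.2% of all tested genes. The median log2 fold change of the members was -0.092 with 2 of 10 above 0, and that of all tested genes was -0.027.

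Levels can be compared between genes only per length, for which the deposited FPKM values were used. In DMSO the mean FPKM was 101.1 ± 2.39 (SD, n = 3) for S100a10, 78.7 ± 42.6 for S100a11, 59.97 ± 11.9 for Anxa2 and 55.8 ± 12.4 for Anxa1. The libraries of S100a11 spanned 52.1 to 127.9 FPKM and overlapped those of S100a10 and Anxa2, so these neighbours did not differ beyond their spread. Anxa2 and Anxa1 also overlapped as groups, but Anxa2 was above Anxa1 in each of the 6 libraries. S100b at 30.9 ± 4.78 and Anxa5 at 28.0 ± 6.77 came next, then S100a13 at 11.2 ± 1.58 and S100a1 at 10.8 ± 2.03, and S100a4 at 7.46 ± 1.31 and S100a6 at 6.81 ± 3.93 were the lowest. Within each of these pairs the DMSO libraries overlapped. In ZJU-37 the S100a10 mean was 274.6 ± 2.18 FPKM, and its lowest library, at 272.2 FPKM, was above the highest S100a11 library, at 125.2 FPKM.

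S100a10 therefore took a larger part of the S100 transcripts. It made up 43.1, 42.4 and 30.0% of the summed FPKM of 17 S100 genes in DMSO and 67.4, 63.0 and 55.5% in ZJU-37. The sum itself was 235.6, 243.7 and 328.3 FPKM in DMSO and 404.1, 437.2 and 498.0 FPKM in ZJU-37. The ratio of S100a10 to its partner Anxa2, both in FPKM, was 2.08, 1.77 and 1.36 in DMSO and 6.72, 4.49 and 3.89 in ZJU-37. The ratio of S100a11 to Anxa1 was 1.17, 1.04 and 1.85 in DMSO and 1.24, 1.28 and 2.07 in ZJU-37. These groups overlapped, and the ratio was higher with ZJU-37 at each of the 3 replicate numbers. Because the members were chosen with this comparison known, both ratios and the shares are descriptions.

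**Figure D2:**
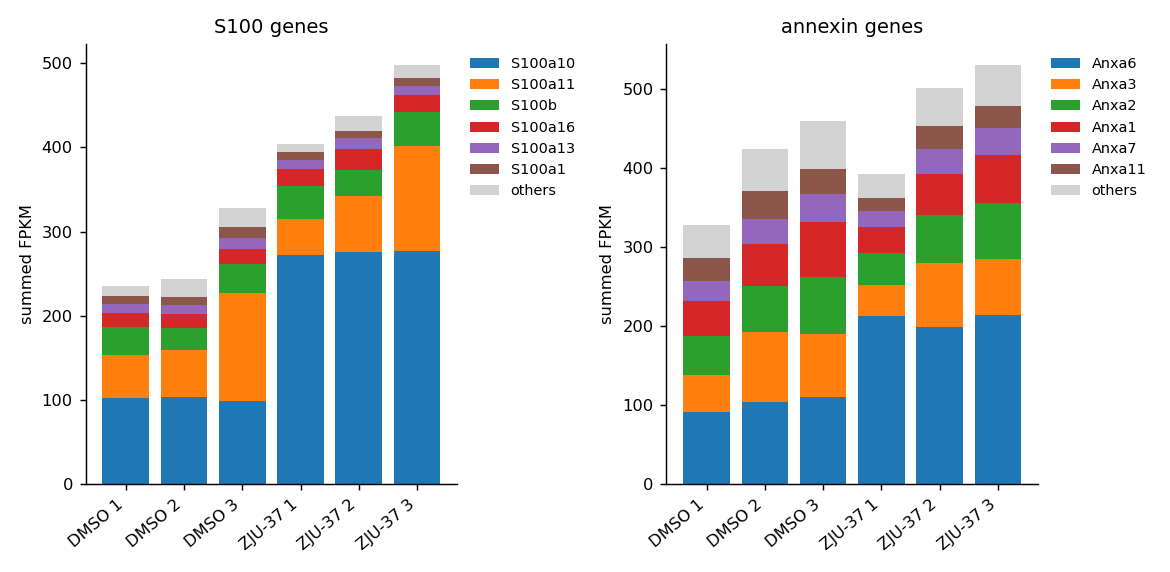
Summed FPKM of the S100 genes (left) and of the annexin genes (right) in each library, with a colour for each of the 6 genes with the highest sums and grey for the others. The blue S100a10 segment grows from a mean of 101.1 to 274.6 FPKM, the blue Anxa6 segment grows too, and S100a11 is tallest in replicate 3 of both groups.

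The genes nearest to S100a10 in pattern were found by the root mean square distance between log2 levels over the 6 libraries, each gene centred on its own mean, among 13883 genes with at least 1 CPM on average. They were Bves at a distance of 0.042, Scfd2 at 0.047, Cfap20 at 0.054, Lmo1 at 0.062 and Shc4 at 0.070, with log2 fold changes of 1.52, 1.48, 1.36, 1.45 and 1.46. 11 genes lay within 0.1. No member was near, since S100b, the nearest of them, was at 0.62, Anxa2 was at 0.81 and S100a11 at 0.96. The distance includes the difference between the groups, on which S100a10 was chosen. A gene without such a difference could therefore not lie near, and these distances are descriptions.

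Most members varied with the replicate number, a measure that their selection did not use. The replicate number was tested as a term beside the group, an analysis added after the values had been seen. By edgeR with Benjamini-Hochberg adjustment over all genes, 6 of 10 members passed, against 15.5% of all tested genes. They were S100a11 (adjusted p = 6.4e-04), Anxa1 (adjusted p = 0.0026), Anxa2 (adjusted p = 0.0039), Anxa5 (adjusted p = 0.0053), S100b (adjusted p = 0.012) and S100a6 (adjusted p = 0.033). The other 4 did not pass, with adjusted p-values by edgeR of 0.11 for S100a4, 0.45 for S100a1, 0.66 for S100a13 and 0.95 for S100a10. Such variation was not particular to the members, since 12 of 14 microglia, 7 of 10 astrocyte, 6 of 9 OPC and 6 of 9 neuron markers also passed. Of the mature oligodendrocyte markers 4 of 13 passed, and of the fibroblast and mural cell markers 3 of 9. The endothelial markers gave 0 of 4 and the Schwann cell markers 0 of 5. The labels do not say what a replicate number stands for.

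S100a11, Anxa1, Anxa2 and Anxa5 shared a pattern. In each of them replicate 1 was the lowest and replicate 3 the highest library of both groups. S100a11 was 0.83 above its group mean on the log2 scale in DMSO replicate 3 and 0.83 above in ZJU-37 replicate 3, whereas Anxa1 was 0.33 and 0.36 above. S100b had another order, with replicate 2 lowest and replicate 3 highest in both groups. Markers of other cells moved with the replicate number too. The summed astrocyte markers were 1506, 1070 and 1709 CPM in DMSO and 1153, 935.0 and 1396 CPM in ZJU-37, in the same order as S100b. The summed microglia markers were 2732, 4684 and 3685 CPM in DMSO and 2009, 4116 and 3116 CPM in ZJU-37, lowest in replicate 1 as in S100a11 and the annexins but highest in replicate 2. The summed fibroblast and mural cell markers were highest in replicate 3 of both groups. Other sums ran the opposite way, since the mature oligodendrocyte markers were lowest in replicate 3 of both groups and the OPC markers were highest in replicate 1 of both. The part of these cells in the members' levels was not tested.

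**Figure D3:**
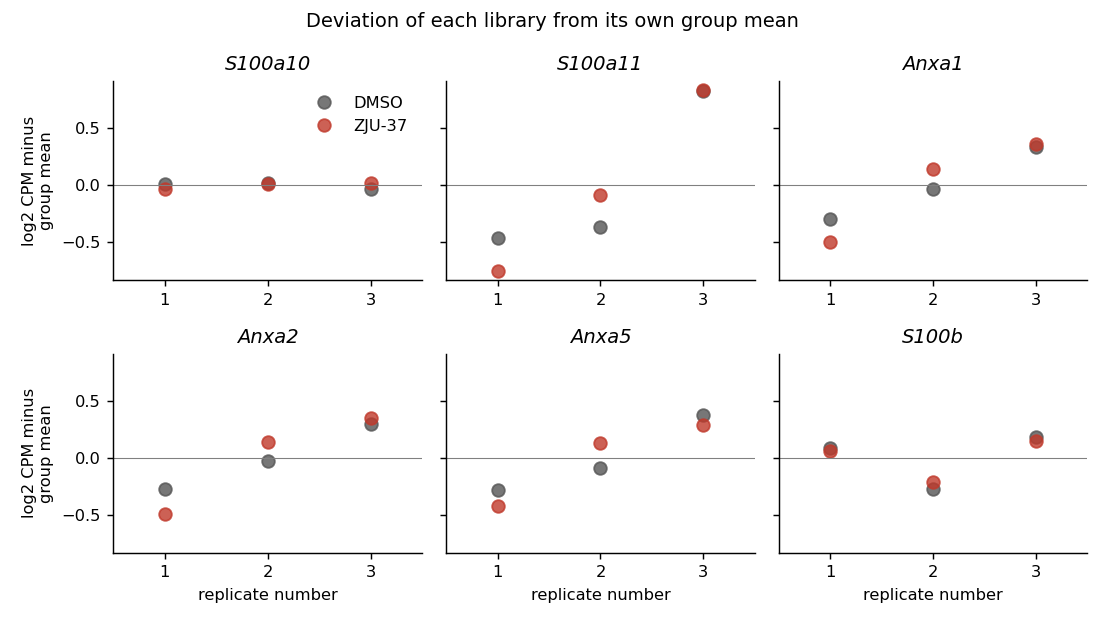
Deviation of each library from its own group mean (y axis, log2 CPM) against the replicate number (x axis) for 6 genes, with DMSO in grey and ZJU-37 in red. In S100a11, Anxa1, Anxa2 and Anxa5 replicate 1 is lowest and replicate 3 highest in both groups, in S100b replicate 2 is lowest, and S100a10 stays near 0.

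Anxa1 and Anxa5 lay 0.057 apart by the distance defined above, Anxa1 and Anxa2 0.067, and S100a11 lay 0.36 from Anxa1. The genes nearest to Anxa1 were Sdc4, a syndecan, at 0.051 and Vstm4 at 0.056, and both were also the nearest to Anxa5, at 0.052 and 0.046. The genes nearest to Anxa2 were Tap1, a peptide transporter of antigen presentation, at 0.044 and Nabp1 at 0.046. Smpdl3a at 0.055, B2m, the light chain of MHC class I, at 0.057 and Anxa7 at 0.059 came next. Nearest to S100a11 were Msr1, a macrophage scavenger receptor, at 0.119 and Slc16a3 at 0.120, then RT1-Da at 0.133, Tchh at 0.136 and Lilrc2 at 0.161. The level of Msr1 was 35.7, 44.1 and 81.6 CPM in DMSO and 31.9, 54.2 and 93.5 CPM in ZJU-37. The nearest genes of these 4 members were listed after the values had been seen.

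The promoter sequences of these 4 genes, which varied together by replicate number, are given because they show what such genes share and do not share upstream. They come from the RefSeq promoter table of assembly GRCr8, which holds 8 of the 10 members but not S100a10 and S100a1. Each is the 150 bases before the annotated start of the gene, 5′ to 3′ on the strand of the gene. The windows are chr2:181874982-181875131 on the plus strand for S100a11, chr1:227303733-227303882 on the minus strand for Anxa1, chr8:78986102-78986251 on the plus strand for Anxa2 and chr2:121272697-121272846 on the minus strand for Anxa5. Capitals mark a TATA box (TATAAA), a GC box (GGGCGG) or an AP-1 site (TGANTCA), searched on both strands.
S100a11: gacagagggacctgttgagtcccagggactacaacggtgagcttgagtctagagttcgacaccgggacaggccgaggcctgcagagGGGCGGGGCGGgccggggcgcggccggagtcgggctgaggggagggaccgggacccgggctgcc
Anxa1: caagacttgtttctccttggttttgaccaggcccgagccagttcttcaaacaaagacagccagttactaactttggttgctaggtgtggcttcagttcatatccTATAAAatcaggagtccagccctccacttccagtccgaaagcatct
Anxa2: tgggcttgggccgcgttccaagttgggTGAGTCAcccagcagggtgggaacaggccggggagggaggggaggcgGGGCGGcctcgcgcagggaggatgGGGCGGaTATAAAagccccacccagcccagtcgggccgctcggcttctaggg
Anxa5: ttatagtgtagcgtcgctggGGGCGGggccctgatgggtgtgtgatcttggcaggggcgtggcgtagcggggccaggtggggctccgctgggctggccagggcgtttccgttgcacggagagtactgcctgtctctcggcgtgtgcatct

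Anxa1 and Anxa2 held a TATA box, 46 and 45 bases before the start, and S100a11 and Anxa5 had none in this window. S100a11 held 2 GC boxes, 64 and 59 bases before the start, that overlap by 1 base. Anxa2 held 2 GC boxes and, 123 bases before the start, an AP-1 site, a palindrome that counts on both strands, and Anxa5 held 1 GC box 130 bases before the start. No motif was shared by all 4. In the whole windows of the table, which run a little past the start, 3 of the 8 members held TATAAA against 14.2% of 33469 promoters, 5 held GGGCGG against 33.1%, 1 held TGANTCA against 7.33%, 1 held a kappaB site against 7.51% and 0 held the cAMP response element TGACGTCA against 1.83%. The kappaB site was in S100a6, 31 bases after the start. A match of letters is a description and says nothing of binding.

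The table, whose genome build is not given in the sources used here, places S100a10 at chr2:193892589-193901236 on the plus strand and S100a11 at chr2:193866951-193868502 on the plus strand, with 24.1 kb between them. The genes S100a1, S100a13, S100a4 and S100a6 lie in a tight group on the same chromosome, between 189900667 and 190008511. Anxa5 is also on chromosome 2, Anxa1 on chromosome 1, Anxa2 on chromosome 8 and S100b on chromosome 20. S100a10, at a log2 fold change of 1.45, and S100a11, at -0.0066, are thus neighbours with unlike values. Of the members, Anxa2 alone overlaps another annotated gene, which had 2 counts in all, and Anxa2 had 9429.

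**Figure D4:**
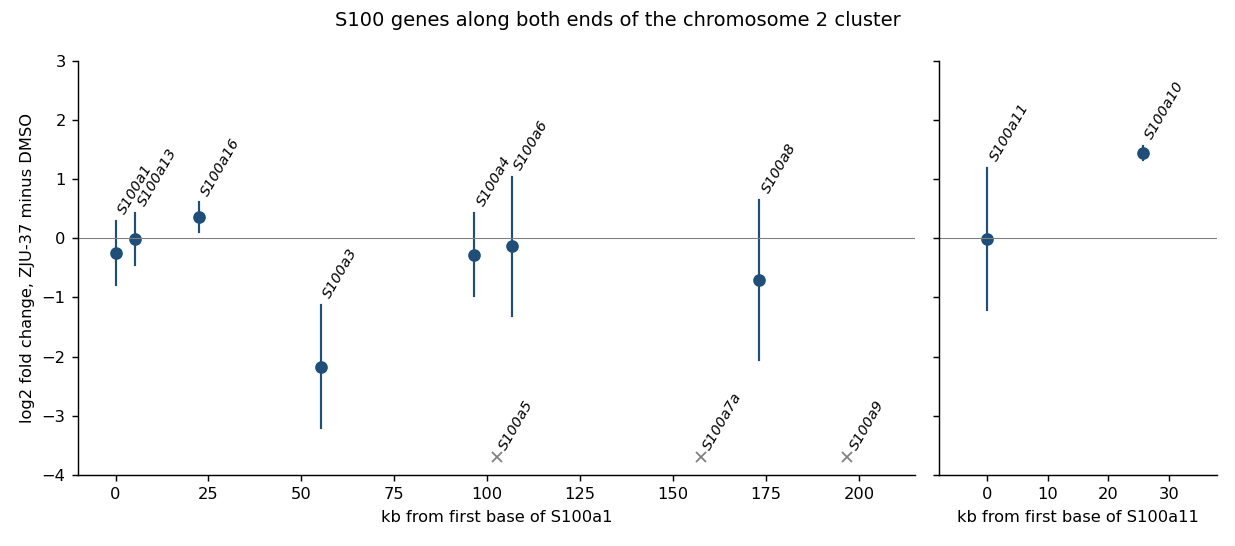
S100 genes on chromosome 2 by distance in kb (x axis) from S100a1 (left) and from S100a11 (right), with the log2 fold change of ZJU-37 against DMSO (y axis), a line for the 95% interval and a cross at the bottom for a gene that was not tested. S100a10 at 1.45 lies beside S100a11 near 0, and the other genes lie near or below 0 except S100a16.

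Of 10 names of other S100 genes searched for, 8 were found and 3 of these passed the filter. Of these 3, S100a3 alone passed the test and fell with ZJU-37 (log2 fold change -2.17, SE 0.44, adjusted p = 0.019 by edgeR). Over all tested genes 9.43% were higher and 5.58% lower. The S100a3 counts were 28, 50 and 25 in DMSO and 9, 5 and 15 in ZJU-37. Its call was lost without DMSO replicate 1 or 2 and without ZJU-37 replicate 1 or 2, with log2 fold changes of -2.18, -1.87, -2.20 and -1.85. S100a16 was at 20.5, 19.1 and 21.4 CPM in DMSO and 24.5, 29.5 and 24.1 CPM in ZJU-37 (log2 fold change 0.35, adjusted p = 0.074 by edgeR). Its groups did not overlap, as in 35.2% of all tested genes. With the replicate block it rose (adjusted p = 0.027 by edgeR), where 32.1% of all tested genes were called. S100a8, a subunit of calprotectin, had a log2 fold change of -0.70 (adjusted p = 0.48 by edgeR). Its partner S100a9 and S100a7a had 0 counts in all libraries, which allows up to 3 counts or 0.124 to 0.219 CPM per library. S100vp and S100a7l2, which were not on the list but are in the table, also had 0 counts, and S100a5, S100g and S100z had 1 count each.

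Of the 9 other annexins, 5 passed the filter. Of these 5, Anxa6 alone passed the test and rose, beside 9.43% higher and 5.58% lower over all tested genes. Anxa6, an annexin that binds membranes of the endocytic path, was at 240.5, 272.4 and 292.8 CPM in DMSO and 556.4, 527.6 and 570.8 CPM in ZJU-37. The groups were far apart, and the log2 fold change was 1.04 (SE 0.088, adjusted p = 6.1e-04 by edgeR). A gene annotated on the other strand of the same span had 100 counts, against 48609 for Anxa6. Its share of the summed FPKM of 12 annexins was 27.7, 24.5 and 24.1% in DMSO and 54.4, 39.6 and 40.4% in ZJU-37. The other 4 did not pass, with log2 fold changes of -0.17 for Anxa3, -0.28 for Anxa4, -0.11 for Anxa7 and -0.37 for Anxa11. With the replicate block Anxa3 fell (adjusted p = 0.027 by edgeR), where 32.1% of all tested genes were called. Anxa3, Anxa4 and Anxa7 passed the test of the replicate number and Anxa6 and Anxa11 did not, beside 15.5% passing over all tested genes.

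**Figure D5:**
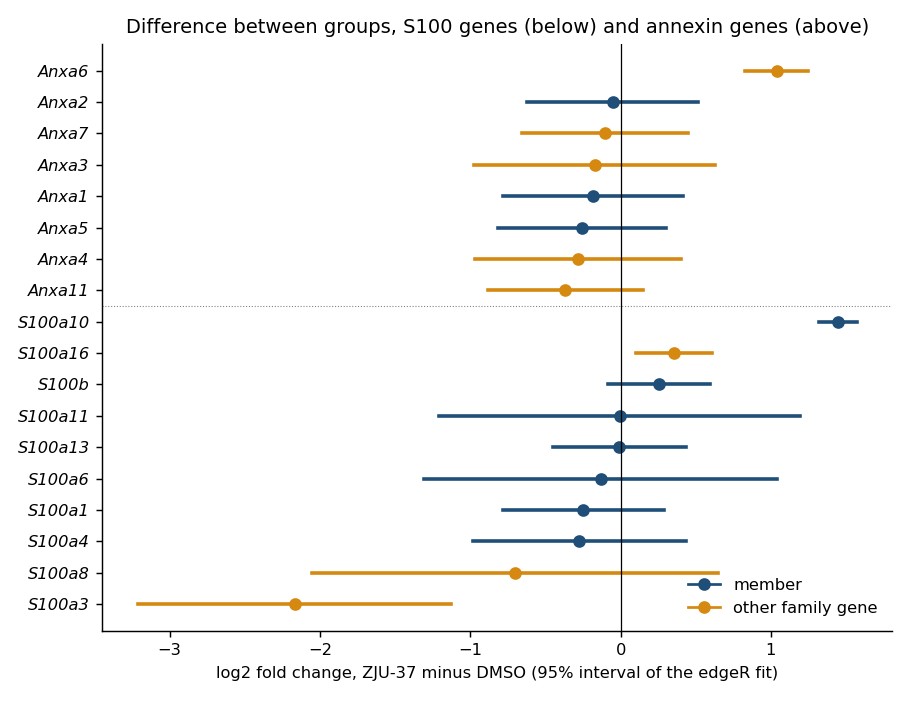
Log2 fold change of ZJU-37 against DMSO (x axis) with its 95% interval for the members (blue) and the other tested S100 and annexin genes (orange). S100a10 at 1.45 and Anxa6 at 1.04 are the genes farthest to the right, S100a3 at -2.17 is the farthest to the left, and the intervals of the other members include 0.

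Of the genes tied to the S100a10 and annexin A2 complex, some passed the test in each direction. Of 16 tested, 2 rose, 2 fell and 12 did not pass, beside 9.43% higher and 5.58% lower over all tested genes, and the median log2 fold change was -0.063 against -0.027 over all tested genes. Kcnk3, the potassium channel TASK-1 whose surface level depends on S100a10, rose from 4.60, 4.12 and 4.35 CPM to 8.60, 8.68 and 9.05 CPM (log2 fold change 1.01, adjusted p = 0.0032 by edgeR). Hltf, a chromatin remodeller that binds the complex in the nucleus, rose (log2 fold change 0.79, adjusted p = 6.2e-04 by edgeR). The acid-sensing channel Asic1 fell (log2 fold change -0.75, adjusted p = 0.011 by edgeR), a call lost without ZJU-37 replicate 3, where its log2 fold change was -0.64. Caveolin Cav1 fell from 113.0, 120.6 and 112.5 CPM to 56.3, 72.3 and 75.02 CPM (log2 fold change -0.76, adjusted p = 0.0052 by edgeR). Ahnak, the large scaffold bound by the complex, did not pass at -0.22. Nor did the plasminogen activators Plat at 0.23 and Plau at -0.17 or the urokinase receptor Plaur at 0.22, all as log2 fold changes.

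Of 16 tested targets and receptors of S100 proteins and annexins, 2 rose and 14 did not pass, a share near the 15.0% of all tested genes. Myh10, a non-muscle myosin heavy chain, rose from 208.1, 186.0 and 197.3 CPM to 346.1, 289.9 and 311.6 CPM (log2 fold change 0.68, adjusted p = 0.0028 by edgeR). Cacybp, the calcyclin-binding protein, rose less (log2 fold change 0.21, adjusted p = 0.040 by edgeR), and it lost the call without any 1 of the DMSO libraries or ZJU-37 replicate 3. Its log2 fold change was then 0.219, 0.196 and 0.204 without DMSO replicates 1 to 3 and 0.220 without ZJU-37 replicate 3. The list's median log2 fold change was -0.0053, and with the replicate block 3 rose and 2 fell, near the 32.1% called over all tested genes with the block.

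The calls in the remaining lists were no more frequent than the 15.0% of all tested genes. Of 15 tested genes of plasma membrane repair, Cav1 alone passed, and the median log2 fold change was -0.071. Among 29 tested entries of other EF-hand calcium-binding proteins, 2 rose and 1 fell, with a median of 0.096. Necab3, a neuronal calcium-binding protein, rose from 19.0, 19.8 and 18.2 CPM to 39.8, 39.7 and 35.8 CPM (log2 fold change 1.01, adjusted p = 5.1e-04 by edgeR), and both genes annotated across it on the other strand had 40 and 49 counts against its 3372. Rcn1, a reticulocalbin of the endoplasmic reticulum, rose (log2 fold change 0.51, adjusted p = 0.0023 by edgeR). Neurocalcin Ncald fell (log2 fold change -0.70, adjusted p = 0.027 by edgeR) and lost the call without any 1 of the libraries other than ZJU-37 replicate 1. Its log2 fold change was then -0.64, -0.72 and -0.76 without DMSO replicates 1 to 3, and -0.57 and -0.61 without ZJU-37 replicates 2 and 3. With the replicate block 4 rose and 4 fell, beside 32.1% of all tested genes.

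S100a10 is also used as a marker of reactive astrocytes, together with a set of other genes. Of 10 of those tested, Emp1 alone passed, at a log2 fold change of 0.80 (adjusted p = 0.0082 by edgeR), from 17.6, 18.7 and 16.0 CPM to 25.2, 32.0 and 33.5 CPM. The median was -0.082. The list summed to 199.8, 278.9 and 300.1 CPM in DMSO and 134.7, 287.3 and 339.5 CPM in ZJU-37, so the groups overlapped and replicate 1 was lowest in both. Most of that sum was Cd14, a gene that microglia also express, at 140.9, 211.7 and 225.0 CPM in DMSO and 74.3, 204.3 and 237.7 CPM in ZJU-37. With the replicate block 2 genes of the list rose and 1 fell, beside 32.1% of all tested genes.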

How the data were processed

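RNA of OPCs was sequenced in 3 DMSO and 3 ZJU-37 libraries. The authors deposited 1 table. Its counts per gene are raw values from featureCounts 1.5.0, after alignment with HISAT2 2.0.5, and StringTie 1.3.3b is also named in the submitters' processing notes. The genome build and the strand setting are not given in the sources used here. The authors computed the deposited FPKM values by scaling counts to gene length and library total. The table also holds the authors' own group means, fold changes and p-values, which were not used.

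Genes were filtered with filterByExpr, scaled by TMM and tested with edgeR 4.0.16 (robust glmQLFit, then glmQLFTest). R 4.3.3 was used, the fit covered all 6 libraries, and p-values were adjusted over all 14670 tested genes by Benjamini-Hochberg and a limit of 0.05. Members were named in full, with every tested S100 or annexin gene, up to 4 called genes with the largest change per list, Ahnak, Plat, Plau and Plaur, and the 5 genes nearest to S100a10. The members and the gene lists were chosen with earlier results of these data known, and 1 gene of the list of targets and receptors is not reported here. The script was tested on simulated data, in 6 draws with 200 genes changed by 1.5 on the log2 scale. Without the replicate block 83.1% of them were recovered and 9.18% of the calls were false. With the block these were 80.9% and 11.3%. False calls were thus more frequent than the limit of 0.05 implies. Alternatives were DESeq2 1.42.0, limma 3.58.1 (voom, and log2 of FPKM plus 1 or 0.1), other scalings, other filters, the replicate block and leaving out each library.

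The labels number the replicates of each group but do not state that equal numbers are paired. Deviations from the group means correlated at 0.455, 0.353 and 0.368 between libraries of the same number and at or below 0 for all others. Deviations within a group sum to 0, so positive values at the same number push the others down, and the others add little. Every pair of libraries differed by more than sampling noise, so each was counted as its own sample, which does not show separate cultures. Distances used log2 CPM with 0.1 added. Intervals for a count of 0 cover counting error only.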

Additional observations from a re-analysis of the deposited data

How the results depend on the processing

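S100a10 kept its direction and its call in all 15 alternatives. Its log2 fold change was 1.48 with library sizes alone and between 1.43 and 1.48 when 1 library was left out. S100a10 was chosen for its rise in these same libraries, so this is a description. The other members had no call in any alternative except S100b and Anxa5 with the replicate block. Without the replicate block, their intervals limit what 3 libraries a group can show: leaving out 1 library moved S100a11 between -0.52 and 0.54 and Anxa2 between -0.22 and 0.17.

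The number of genes called was 2201, 62.8% of them higher. With the replicate block it was 4705, 50.4% of them higher, and with 1 library left out it was 1306 to 1927, lowest without DMSO replicate 2 and 1351 without ZJU-37 replicate 3. With the block, calls went from 1 to 3 among members, from 2 to 4 among the other S100 and annexin genes, from 2 to 5 among targets and receptors, from 3 to 8 among EF-hand genes and from 1 to 3 among reactive astrocyte genes, and among the members, the other S100 and annexin genes and the list genes with values in the report it changed the calls of S100b, Anxa5, S100a16 and Anxa3 and of no other. The other S100 and annexin genes gave 1 call with at least 10 counts in every library, since S100a3 was then not tested, and 1 to 2 calls with 1 library left out. Targets and receptors gave 1 call with no filter on low counts and 1 to 2 calls with 1 library left out. The cause of these differences was not tested.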
